A study of Mus musculus with 2 samples.

Results

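Group 3 innate lymphoid cells were sought in single-cell RNA sequencing of whole mouse intestine, and 84 of 15156 kept cells met the rule used here. A kept cell had 500 or more UMIs (unique molecular identifiers, each standing for 1 captured RNA molecule), 250 or more genes and no more than 25% mitochondrial UMIs. A member had at most 1 UMI of Cd3d, Cd3e and Cd3g summed, at least 1 UMI of Il7r, at least 2 UMIs of Il23r, Il22 and Kit summed, and none of Cpa3, Cd79a and Epcam. The butyrate library held 50 members and came from 1 wild-type mouse fed a diet containing 1% butyrate. The RA library held 34 members and came from 1 wild-type mouse on standard chow, which the study's design text calls CIA, for collagen-induced arthritis. Whether arthritis was induced in the mouse on butyrate is not given in the labels, so diet and disease cannot be told apart, and both groups share the wild-type genotype and the tissue. Strain, age and sex are not given in the sources used here.

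Group 3 innate lymphoid cells (ILC3) are lymphocytes without a T cell receptor that live in mucosal tissue and depend on the IL-7 receptor. They respond to IL-23 and IL-1 from myeloid cells and make IL-22, which acts on the epithelium to drive antimicrobial peptides and repair, and they also make IL-17 and GM-CSF. In mice they are commonly divided into lymphoid tissue inducer-like cells, which carry the chemokine receptor CCR6, and cells that carry the natural cytotoxicity receptor NKp46, encoded by Ncr1. Butyrate, a short-chain fatty acid made by gut bacteria from fibre, acts on cells through G protein-coupled receptors and by inhibiting histone deacetylases.

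The rule chose cells on the UMIs of its own genes, so the values of these genes describe the choice and test nothing. Il7r, the IL-7 receptor chain that innate lymphocytes need to survive, had a median of 4 UMIs per cell (range 1 to 16) in the butyrate members and 4 (range 1 to 17) in the RA members. Kit, the receptor for stem cell factor, was found in all 50 butyrate members and in 32 of the 34 RA members. Il23r, the specific chain of the IL-23 receptor, had a UMI in 11 butyrate members and 9 RA members. Il22 had a UMI in 11 butyrate members and 8 RA members. In GENCODE M21 on GRCm38 these protein-coding genes lie at chr15:9505788-9530176 (Il7r, minus strand), chr5:75574916-75656722 (Kit, plus), chr6:67422932-67491855 (Il23r, minus) and chr10:118204942-118210047 (Il22, plus). Most members entered on Kit and Il7r alone. The lowest marker sum that the rule admits, 2, was held by 11 butyrate and 4 RA members. Just outside it were 12 butyrate and 7 RA cells with a sum of 1, which was a Kit UMI in 11 and 6 of them and an Il23r UMI in 1 and 1.

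The label was checked against markers that the rule did not use, and these were divided. Il1r1, the IL-1 receptor, had a UMI in 10 of the 50 butyrate members (20%, exact 95% interval 10 to 33.7) and 10 of the 34 RA members (29.4%, 15.1 to 47.5). Il17f had a UMI in 6 butyrate members (12%, 4.53 to 24.3) and 4 RA members (11.8%, 3.3 to 27.5). In B cells, taken as a type that should lack these genes, a UMI of Il1r1 was found in 3.73% of butyrate and 3.88% of RA cells, and one of Il17f in 0.278% and 0.191%, at median depths of 4566 and 4173.5 UMIs. Genes of the same marker list that other innate lymphocytes share were found in most members. Rora, the RORα gene, had UMIs in 48 butyrate and 34 RA members, Id2, which restrains the T and B cell programmes, in 46 and 31, and Ltb, the lymphotoxin beta gene, in 34 and 28. Tmem176a, a membrane protein gene high in ILC3, was found in 31 butyrate and 25 RA members, Tmem176b in 34 and 25, and Cxcr6 in 33 and 21. Ahr, the aryl hydrocarbon receptor gene of the same list, was found in 25 of 50 butyrate and 16 of 34 RA members. The median depth of the members was 5126 UMIs in the butyrate library and 6123.5 UMIs in the RA library. A missing UMI of a low-count gene is weak evidence, so a lack of Il23r and Il22 UMIs alone neither established nor excluded the label. The members are called by their leading genes below, in 4 subsets that were drawn after the values had been seen and that serve as description only. Cells with Il23r or Il22 numbered 12 of the 50 butyrate members (24%, exact 95% interval 13.1 to 38.2) and 9 of the 34 RA members (26.5%, 12.9 to 44.4). The others had Kit as their only marker of the 3, in 38 butyrate members (76%) and 25 RA members (73.5%). These split into cells with Ncr1 or Xcl1 (24 and 19), cells with at least 10 UMIs of H2-Aa (3 and 3) and the remainder (11 and 3). The H2-Aa cells held 92 to 167 UMIs of Cd74, a gene of antigen-presenting cells, in the butyrate and 80 to 253 in the RA library. No other member held more than 10. Every cell of the remainder had Gata3, and Il17rb was found in 8 and 3 of them and in no other member. For none of the Kit-only cells was the ILC3 label established, and ratios over all members include these cells. Those with Ncr1 or Xcl1 had Il1r1 in 1 of 24 butyrate and 1 of 19 RA cells and Il17f in none. A count of 0 cells allows a share with a UMI, which is not the share expressing a gene, of up to 25% among 12 cells, 33.3% among 9, 12.5% among 24, 15.8% among 19 and 27.3% among 11, while among 3 cells it sets no useful limit. All intervals and limits cover counting error only, since each group is 1 mouse and 1 library.

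**Figure D1:**
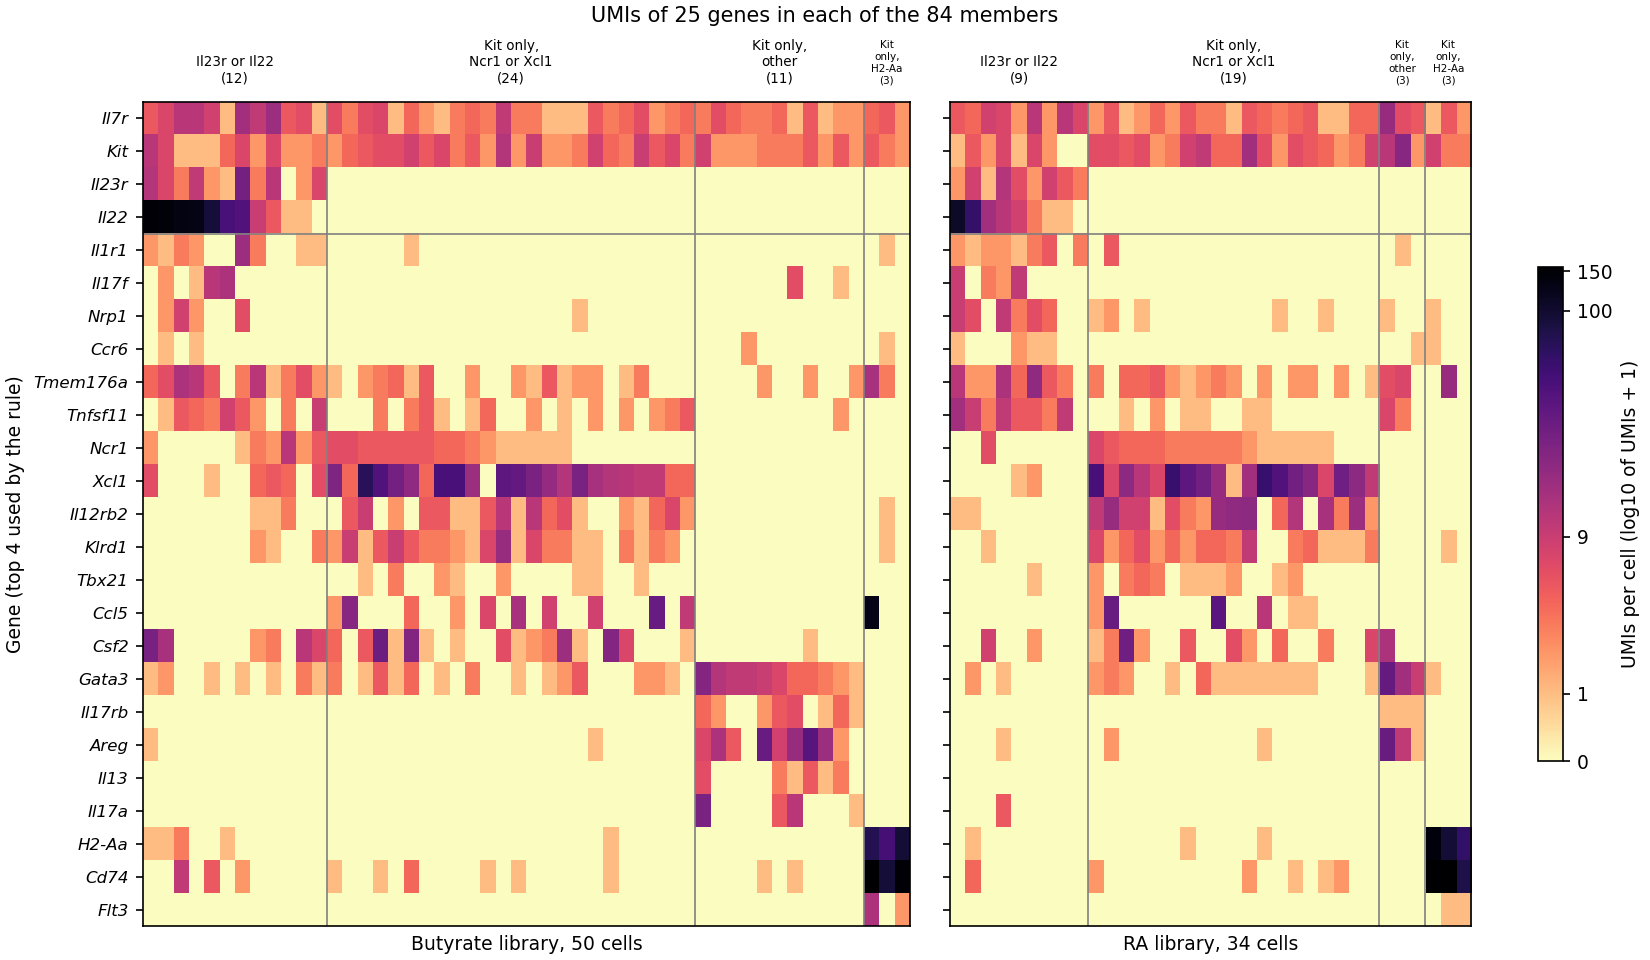
UMIs of 25 genes (rows) in each of the 84 members (columns), butyrate library on the left and RA library on the right, with columns ordered by subset and colour on a log10(UMIs + 1) scale. The top 4 rows are genes used by the rule. Il1r1 and Il17f lie mostly in the 12 and 9 cells with Il23r or Il22. Il12rb2 lies mostly in the 24 and 19 Kit-only cells with Ncr1 or Xcl1, genes that were used to draw this subset. Gata3 and Areg are high in the 11 and 3 remaining Kit-only cells.

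The cells with Il23r or Il22 carried further genes known from ILC3. Il1r1 was found in 8 of 12 butyrate and 8 of 9 RA cells, and Tmem176a in 11 and 8. Rora and Id2 did not set them apart, since Rora was found in every one of them and also in all 24 and 19 Kit-only cells with Ncr1 or Xcl1, and Id2 in 11 and 8 of them and in 24 and 18 of those. Ahr was found in 3 of 12 butyrate and 2 of 9 RA cells, against 11 of 24 and 9 of 19 Kit-only cells with Ncr1 or Xcl1. Il17f had UMIs in 4 butyrate and 4 RA cells, and Tnfsf11, the RANK ligand through which lymphoid tissue inducer cells act on stroma, in 9 and 8. Vegfa, a vascular growth factor, was found in 10 butyrate and 7 RA cells, and Ramp3, a receptor-modifying protein for calcitonin-family peptides, in 9 and 7. The cytotoxic granule gene Nkg7 and the chemokine gene Ccl5 had no UMI in any of these cells.

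The Kit-only cells with Ncr1 or Xcl1 were chosen on those genes, and what they shared beyond them was a set of genes known from group 1 innate lymphocytes and natural killer cells. These genes do not by themselves place the cells in either type. Eomes and Gzma, further genes of those types, had few UMIs over all members, as given below. Il12rb2, a chain of the IL-12 receptor, was found in 19 of 24 butyrate and 17 of 19 RA cells. Klrd1, the CD94 receptor, was found in 22 and 17, Nkg7 in 16 and 15, and Ccl5 in 10 and 6. Tbx21, which encodes the type 1 factor T-bet, had UMIs in 8 butyrate and 10 RA cells, and Ifng in 8 and 5. Il1r1 was found in 1 cell of each library and Il17f in none. Xcl1, the lymphotactin gene, had a median of 17 UMIs per cell (0 to 70) in the butyrate cells and 20 (1 to 58) in the RA cells.

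Set beside these were 14 butyrate and 14 RA cells picked as group 1 innate lymphoid cells by Ncr1, Klrb1c and Eomes with no UMI of Il23r, Il22 or Kit. Il17f had no UMI in them. Both kinds of cell carried Il12rb2 (13 and 10 of the 14 comparison cells) and Nkg7 (12 and 11). Ccl5 reached 7973 CPM in the butyrate and 3550 CPM in the RA comparison cells, against 807 and 654 CPM in the Kit-only cells, where CPM are counts per 1000000 UMIs of the cells summed. Tmem176a was found in 15 butyrate and 14 RA Kit-only cells, and in 4 and 3 comparison cells. Csf2, the gene for GM-CSF, was found in 16 and 10 of the Kit-only cells, and in 2 and 2 of the comparison cells. Cxcr6, a homing receptor of tissue lymphocytes, was found in 14 and 10 Kit-only cells and in none of the comparison cells. Since the picks used Kit, Ncr1, Klrb1c and Eomes, these genes say nothing here.

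The remaining Kit-only cells, 11 butyrate and 3 RA, carried genes of type 2 immunity, and some butyrate cells also Il17a. Gata3, the factor of group 2 innate lymphoid and type 2 helper T cells, was found in every one of them, with a median of 7 UMIs per cell (1 to 22) in the butyrate cells and values of 9, 15 and 33 in the RA cells. Areg, the tissue-repair growth factor amphiregulin, had 139 UMIs in 9 butyrate cells and 42 UMIs in 3 RA cells. Il17rb, the IL-25 receptor, had 25 UMIs in 8 butyrate cells and 3 UMIs in 3 RA cells. Il13 had 19 UMIs and Il4 28 UMIs, each in 6 butyrate cells, while neither had a UMI among the RA ones, where 0 UMIs allow up to 107.8 CPM. Il5 had 12 UMIs in 3 butyrate cells and 17 UMIs in 2 RA cells. Il17a, a cytokine gene of type 3 immunity, had 42 UMIs in 4 of the butyrate cells and Il17f 7 UMIs in 2, and neither had a UMI in the RA cells. Trac, the T cell receptor alpha constant gene, had no UMI in these cells, whereas the beta constant gene Trbc2 had 31 UMIs in 10 butyrate cells and 6 UMIs in 2 RA cells.

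The 3 butyrate and 3 RA Kit-only cells with at least 10 UMIs of H2-Aa carried genes of antigen-presenting cells. Their H2-Aa counts were 50, 75 and 94 in the butyrate cells and 62, 95 and 142 in the RA cells. Cd74, the invariant chain, had 409 UMIs in the butyrate cells and 552 in the RA cells. Flt3, the growth factor receptor of dendritic cell precursors, had 15 UMIs in 2 butyrate cells and 2 UMIs in 2 RA cells, and the migration receptor gene Ccr7 57 UMIs in 2 and 8 UMIs in 2. The same butyrate cell held 13 of the 15 Flt3 and 53 of the 57 Ccr7 UMIs, and 1 RA cell held 7 of the 8 Ccr7 UMIs. Their median depth was 13003 UMIs in the butyrate library and 13505 UMIs in the RA library.

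**Figure D2:**
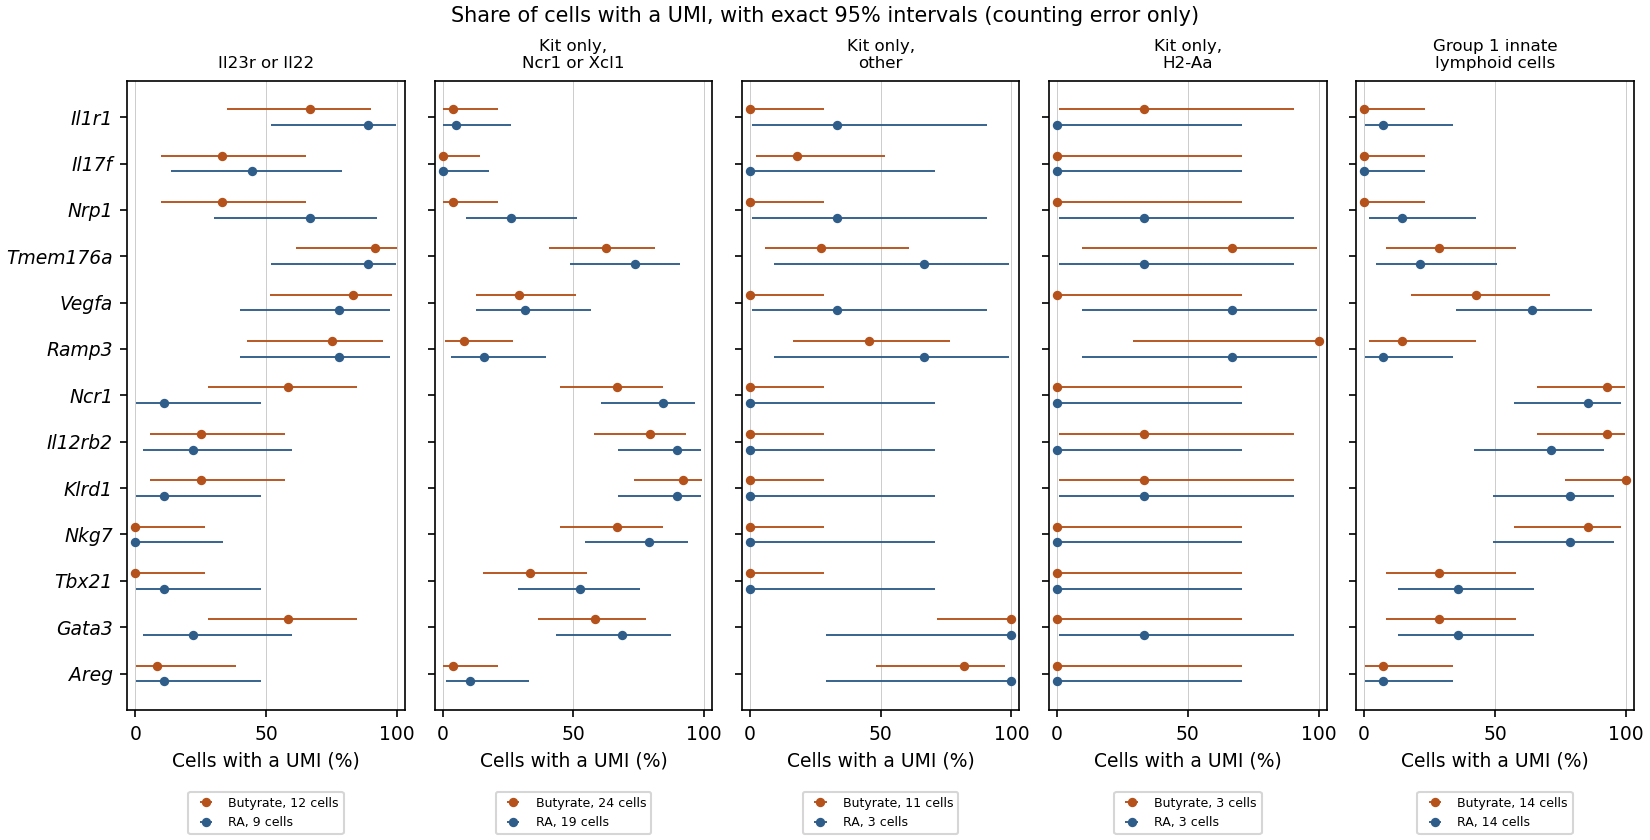
Percentage of cells with a UMI of each of 13 genes in the 4 subsets of members and in the group 1 comparison cells, with the butyrate library drawn above the RA library for each gene; bars are exact 95% intervals for counting error only. Il1r1, Il17f and Vegfa stand highest in the cells with Il23r or Il22. Klrd1 and Nkg7 do so in the Kit-only cells with Ncr1 or Xcl1 and in the comparison cells, and Gata3 and Areg in the remaining Kit-only cells. Ncr1 was used to pick the Kit-only subset and the comparison cells, so its shares there describe the choice.

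The split of ILC3 by Ncr1 and Ccr6 was made over all members. Ncr1 had a UMI in 23 of the 50 butyrate members (46%, 31.8 to 60.7) and 17 of the 34 RA members (50%, 32.4 to 67.6). Ccr6 had a UMI in 4 butyrate members (8%, 2.22 to 19.2) and 6 RA members (17.6%, 6.76 to 34.5). No member had a UMI of both, and 3 counts of the total, the limit used for a count of 0, come to 6% of the butyrate members and 8.82% of the RA members. The Ncr1 share among B cells was 0.193% in the butyrate library and 0.0318% in the RA library. When the members were thinned to 1000 UMIs each, Ncr1 remained detected in 20% of the butyrate and 23.5% of the RA members, and Ccr6 in 2% and 2.94%. Most cells with Ncr1 were Kit-only cells, 16 of the 23 in the butyrate library and 16 of the 17 in the RA library. The cells with Ccr6 were 2 butyrate and 4 RA cells with Il23r or Il22, 1 and 1 remaining Kit-only cells, and 1 and 1 Kit-only cells with H2-Aa. Neither gene alone singles out the cells with Il23r or Il22, so these shares are not shares of ILC3 types. The number of cells with both genes that the shares alone would give was not computed.

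T cell transcripts were unequal. Trac had 4 UMIs in 4 butyrate members and none in the RA members, whereas it was found in 79.6% of butyrate and 73.8% of RA T cells. Trbc2 had 134 UMIs in 34 butyrate members (68%) and 58 UMIs in 15 RA members (44.1%), a ratio of 1.96 (1.43 to 2.71). Trbc1, the other beta constant gene, had 90 UMIs in 29 butyrate members (58%) and 69 UMIs in 23 RA members (67.6%), a ratio of 1.1 (0.798 to 1.53). A part of these transcripts in the ratios below was not tested. The gamma delta constant gene Trdc had 2 UMIs in the butyrate and 1 UMI in the RA members. Cells that met every criterion other than the one on Cd3 numbered 81 in the butyrate and 70 in the RA library, and 63 and 47 of them had Il23r or Il22. These Cd3-high cells carried Il1r1 in 54 of 63 butyrate and 28 of 47 RA cells, and Il17a in 28 and 18. Ncr1 had a UMI in 0 of the 63 butyrate cells, which allows up to 4.76% of cells with a UMI, and in 1 of the 47 RA cells. Vegfa had no UMI in the 63 butyrate cells and 5 UMIs in 3 of the 47 RA cells. In the members with Il23r or Il22, Ncr1 had a UMI in 7 of 12 butyrate and 1 of 9 RA cells and Vegfa in 10 of 12 and 7 of 9.

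Markers of other cell types were summed over all members of a library. The fibroblast list summed to 178 UMIs in the butyrate and 460 in the RA members, and decorin (Dcn) alone had 74 UMIs in 1 butyrate member and 222 UMIs in 3 RA members. The dendritic cell list summed to 106 and 73 UMIs, the epithelial list to 109 and 99, the endothelial list to 63 and 61, and the macrophage list to 19 and 23. Mast cell, B cell, plasma cell, eosinophil, muscle and glial lists each summed to at most 10 UMIs in the butyrate members and 11 in the RA members. The group 2 innate lymphoid list summed to 277 UMIs in the butyrate and 158 in the RA members, the list of natural killer and group 1 cells to 222 and 152, the T cell list to 339 and 191, and the gamma delta T cell list to 26 and 23. Among defining genes, Eomes had 2 and 0 UMIs, Gzma 3 and 5, and Krt8 4 and 5.

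The libraries were then set side by side, the butyrate-fed mouse over the arthritic mouse on chow. The butyrate library held 9959 barcodes with 67894477 UMIs and kept 8247 cells, against 10140 barcodes, 61912439 UMIs and 6909 kept cells in the RA library. The lowest barcode deposited had 2313 UMIs in the butyrate and 501 UMIs in the RA library, and the members ranged from 2761 to 18564 and from 1025 to 24799 UMIs. The libraries shared 27 barcodes, 19 of them kept and 0 of them members. Members made up 0.606% of the kept cells in the butyrate library (0.450 to 0.799) and 0.492% in the RA library (0.341 to 0.687). The ratio of these shares was 1.23 with an interval of 0.781 to 1.96, which includes 1 and covers only the counting of cells in these 2 libraries. Of the Cd3-low cells with Il7r, members were 50 of 117 (42.7%, 33.6 to 52.2) in the butyrate library and 34 of 104 (32.7%, 23.8 to 42.6) in the RA library. Each group was 1 mouse, so no test between the mice is given, and each ratio below compares 2 libraries.

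Il22 was higher in the butyrate members, as a description of a gene that the rule used. It summed to 750 UMIs in 11 cells (2456 CPM) in the butyrate members and 206 UMIs in 8 cells (796.4 CPM) in the RA members, a ratio of 3.08 (2.64 to 3.61). Within the cells with Il23r or Il22, the lowest, median and highest counts per cell were 0, 45 and 149 in the butyrate cells and 0, 8 and 106 in the RA cells. At least 40 UMIs were found in 7 of 12 butyrate and 2 of 9 RA cells, and the ranges overlapped. The most Il22-rich RA cell held 51.5% of that library's member UMIs. With the top cell of each library left out the ratio was 5.06.

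The exclusion of cells with Epcam bore on the Il22 difference. In the RA library 4 cells with 130 Il22 UMIs, 25.8% of all Il22 of its kept cells, met every criterion except that of Epcam, of which they had at most 2 UMIs. No butyrate cell with Il22 was left out on Epcam alone. With 1 UMI of Epcam allowed, the ratio was 2.28, but any of these cells with 2 Epcam UMIs stayed out. The ratio with all 4 included was not computed. Over all kept cells, Il22 had 1043 UMIs in the butyrate and 504 in the RA library, a ratio of 1.67 per UMI (1.5 to 1.87), and the Il22 UMIs of Cd3-low cells alone, per UMI of all kept cells, had a ratio of 1.76 (1.55 to 2). In B cells, which should lack the gene, an Il22 UMI was found in 0.257% of butyrate cells and 0.127% of RA cells.

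**Figure D3:**
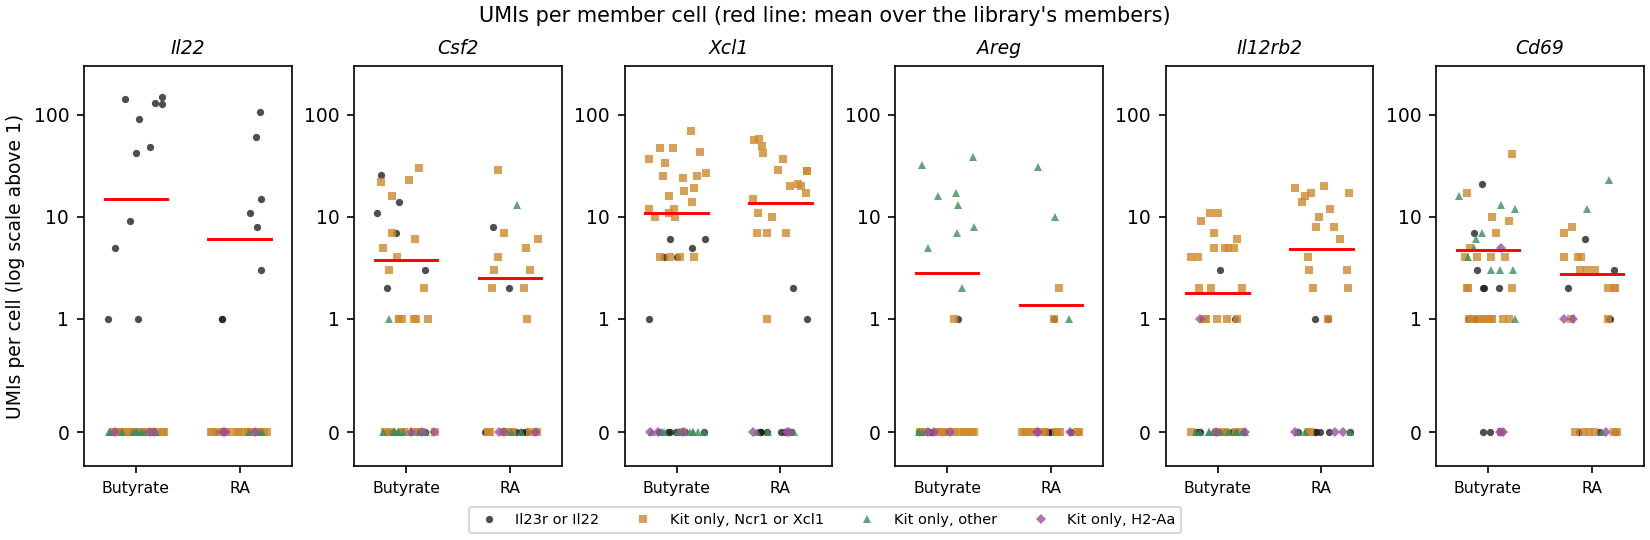
UMIs per cell of Il22, Csf2, Xcl1, Areg, Il12rb2 and Cd69 in the 50 butyrate members (left of each panel) and the 34 RA members (right), on an axis that is logarithmic above 1 UMI; symbols mark the subsets and the red line is the mean. Il22 reaches 149 UMIs in a butyrate cell and 106 in an RA cell, and Il12rb2 reaches 11 and 20.

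Of the other secreted factors, Csf2, Areg and Il17a had ratios above 1, while Xcl1 and Tnfsf11 had ratios below 1 with intervals that include it. The intervals take each UMI as independent, although UMIs gathered in few cells of 1 mouse, so they do not sort genes into changed and unchanged. Csf2 had 188 UMIs in 23 butyrate cells and 85 UMIs in 13 RA cells, a ratio of 1.87 (1.44 to 2.45), and its highest cells held 30 and 29 UMIs. Areg had 141 UMIs in 11 butyrate cells and 46 UMIs in 6 RA cells, a ratio of 2.60 (1.85 to 3.7), with 67.4% of the RA UMIs in 1 cell and a ratio of 5.59 without the top cells. Il17a had 42 UMIs in 4 butyrate cells, all of them remaining Kit-only cells with Gata3, and 5 UMIs in 1 RA cell, a ratio of 7.11 (2.82 to 23). Of the butyrate UMIs of Il17a, 25 lay in 1 cell. Xcl1 had 543 UMIs in 29 butyrate cells and 467 UMIs in 21 RA cells, a ratio of 0.985 (0.869 to 1.12). Tnfsf11 had 76 UMIs in 23 butyrate cells and 77 UMIs in 16 RA cells, a ratio of 0.836 (0.601 to 1.16). Of the 14 effector cytokine genes with at least 20 UMIs, 9 were higher and 5 lower in the butyrate library, 4 of them at least 2-fold higher and 0 at least 2-fold lower. Il22, which the rule used, is among those at least 2-fold higher, so this count is not independent of the rule. Of all 4331 genes with at least 20 UMIs, 4.32% were at least 2-fold higher in the butyrate members and 6.63% at least 2-fold lower. The median log2 ratio of the list was 0.27 and that of all these genes was 0.00.

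Among receptors, Il12rb2 was lower in the butyrate members, with 89 UMIs in 23 cells against 164 UMIs in 19 RA cells, a ratio of 0.46 (0.351 to 0.598). With 1 UMI of Epcam allowed the ratio was 0.714. Nrp1, the neuropilin receptor found on lymphoid tissue inducer cells, had 19 UMIs in 5 butyrate cells and 46 UMIs in 13 RA cells, a ratio of 0.35. Cd69, an early activation and tissue retention receptor, had 239 UMIs in 44 butyrate cells and 94 UMIs in 22 RA cells, a ratio of 2.15 (1.69 to 2.76). The median was 2 UMIs per cell in the butyrate members and 1 in the RA members. The Cd69 ratio was 1.49 with 1 UMI of Epcam allowed. Of 16 cytokine receptor genes 9 were higher and 7 lower, with 1 at least 2-fold lower and a median log2 ratio of 0.06. Of 8 homing and lipid receptor genes 7 were higher and 1 lower, with a median of 0.43, which was 0.08 without the members rich in H2-Aa or Dcn.

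**Figure D4:**
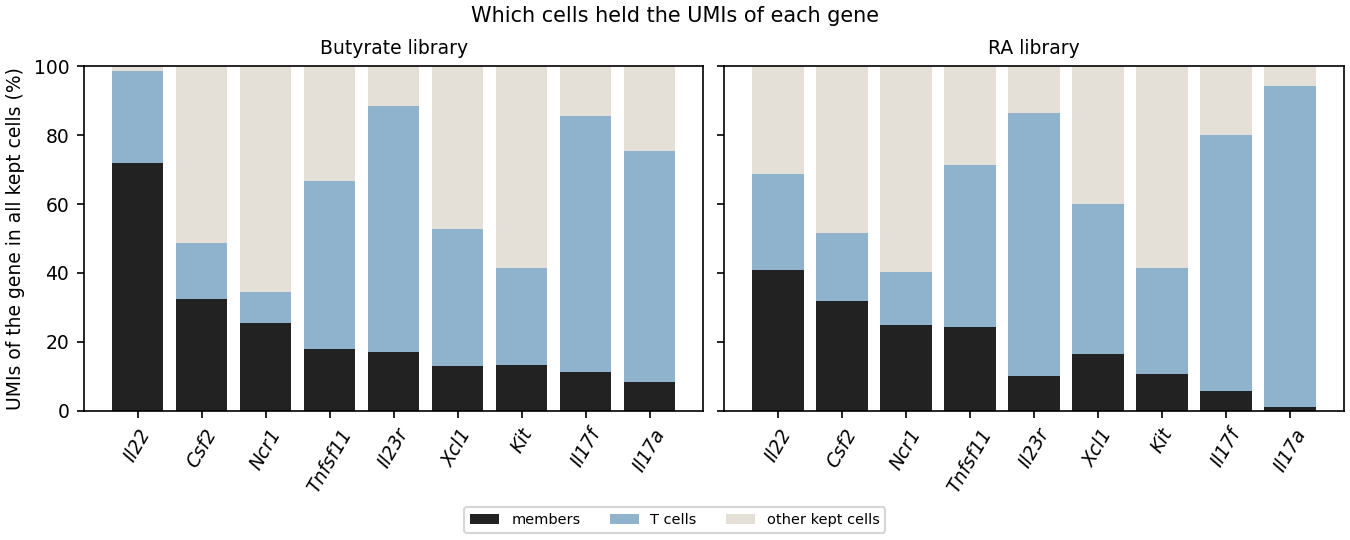
Percentage of all UMIs of 9 genes in kept cells that lay in the members, in T cells and in the other kept cells, with the butyrate library beside the RA library. The members held 71.9% of Il22 in the butyrate library and 40.9% in the RA library, but 17.1% and 10.1% of Il23r. All cells with a Cd3 sum of at most 1, with those left out on Epcam, held 73.3% and 69.8% of Il22.

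Seen across the whole libraries, the members were 1 source of these transcripts among several. They held 71.9% of the Il22 UMIs of kept cells in the butyrate library and 40.9% in the RA library, while T cells held 26.7% and 27.8%. Il22 is a gene of the rule, and 4 RA cells left out on Epcam alone held a further 25.8% of that library's Il22. All cells with a Cd3 sum of at most 1 held 73.3% in the butyrate and 69.8% in the RA library, so the shares were close there. The members held 32.5% of the Csf2 UMIs in the butyrate and 31.8% in the RA library, 25.6% and 24.9% of Ncr1, and 17.8% and 24.2% of Tnfsf11. Of Il23r they held 17.1% and 10.1%, with 71.4% and 76.3% in T cells. Of Areg they held 1.94% and 0.784%.

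Within the 12 butyrate and 9 RA cells with Il23r or Il22, Ncr1, Xcl1 and Csf2 were higher and Nrp1, Tnfsf11 and Socs3 lower in the butyrate library. A further 4 RA cells with Il22, and 0 butyrate cells, were left out of this subset on Epcam alone. How they would move the subset's ratios was not tested. In the 12 and 9 cells, 8.85% of the 1198 genes with at least 20 UMIs were at least 2-fold higher in the butyrate library and 6.84% at least 2-fold lower. Ncr1 was found in 7 of 12 butyrate cells (58.3%, 27.7 to 84.8) and 1 of 9 RA cells (11.1%, 0.281 to 48.2), at 352.3 and 104.2 CPM. Xcl1 was at 352.3 CPM in the butyrate and 52.1 CPM in the RA cells, a ratio of 6.76 (2.07 to 34.9) that rests on 3 RA UMIs and was 15.4 (2.49 to 635) without the cells rich in Dcn, and Csf2 at 853.6 and 173.7 CPM, a ratio of 4.91 (2.5 to 10.7). Ramp3 was at 1016 and 538.6 CPM, a ratio of 1.89 (1.23 to 2.97). In the other direction, Nrp1 was at 243.9 CPM in the butyrate and 660.2 CPM in the RA cells, a ratio of 0.369 (0.198 to 0.663). Tnfsf11 was at 542 and 1042 CPM, a ratio of 0.52 (0.339 to 0.789). Socs3, the feedback inhibitor of STAT3 signalling, was at 67.8 and 382.2 CPM, a ratio of 0.177 (0.0524 to 0.48). It was 0.28 (0.064 to 0.97) without the 1 butyrate and 1 RA cell with at least 10 UMIs of Dcn. Il17f was at 365.8 and 417 CPM, a ratio of 0.877 (0.487 to 1.59). Of the list of natural cytotoxicity receptor and group 1 genes 3 of 3 were higher in the butyrate cells, with a median log2 ratio of 1.67. Of the 6 lymphoid tissue inducer-like genes 0 were higher and 3 were at least 2-fold lower, with a median of -1.06, beside 0.04 for all genes. Without the cells rich in Dcn these medians were 1.34 and -1.10. Other signs moved with them. Of 15 immediate early and dissociation genes 3 were higher and 12 lower in the butyrate cells, 6 of them at least 2-fold, with a median of -0.89, or -0.23 over 9 genes without the cells rich in Dcn. The epithelial list summed to 68 UMIs in the butyrate and 12 in the RA cells, and the fibroblast list to 177 and 260. The part of these signs in the other ratios was not tested.

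Il22 was found in cells with and without Ncr1. In the butyrate library the 7 cells with Ncr1 had 0 to 149 Il22 UMIs with a median of 5, and the 5 without Ncr1 had 48 to 144 with a median of 128. In the RA library the single cell with Ncr1 had 15, and the 8 without had 0 to 106 with a median of 5.5. Ccr6 had no UMI in the cells with Ncr1 and was found in 2 of the 5 butyrate and 4 of the 8 RA cells without it. Nrp1 was found in 1 of the 7 butyrate cells with Ncr1, and in 3 of the 5 butyrate and 6 of the 8 RA cells without it. Csf2 was found in 5 of the 7 butyrate cells with Ncr1 and in 1 of the 5 without.

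Within the Kit-only cells with Ncr1 or Xcl1, 5.17% of 2359 genes with at least 20 UMIs were at least 2-fold higher in the butyrate library and 6.06% at least 2-fold lower. Il12rb2 had a median of 2 UMIs per cell (0 to 11) in the 24 butyrate cells and 8 (0 to 20) in the 19 RA cells, and 620.3 against 1261 CPM, a ratio of 0.492 (0.373 to 0.645). In the group 1 comparison cells Il12rb2 was at 650.8 CPM in the butyrate and 471.6 CPM in the RA library, a ratio of 1.38. The difference between these ratios was not tested. Tbx21 was at 89.7 CPM in the butyrate and 155.7 CPM in the RA Kit-only cells, a ratio of 0.576 (0.257 to 1.24). Csf2 was at 926.8 and 482.7 CPM, a ratio of 1.92 (1.4 to 2.65), and Tnfsf11 at 254.1 and 54.5 CPM, a ratio of 4.66 (2.03 to 12.5). The Tnfsf11 ratio lay above 1 here and below 1 in the cells with Il23r or Il22, a difference that was not tested. Cd69 was at 904.3 CPM in the butyrate and 342.5 CPM in the RA cells, a ratio of 2.64 (1.86 to 3.82). Ncr1 and Xcl1 themselves had ratios of 1.15 and 1.07, and Kit 1.12. Of 10 heat shock genes all 10 were higher in the butyrate cells, 2 of them at least 2-fold, with a median log2 ratio of 0.55 beside 0.04 for all genes. The fibroblast list summed to 1 UMI in the butyrate and 200 in the RA cells, and the epithelial list to 31 and 80. Without the 1 RA cell with at least 10 UMIs of Dcn, the ratios were 0.463 for Il12rb2, 1.7 for Csf2, 3.93 for Tnfsf11 and 2.33 for Cd69, and the heat shock median was 0.47. Of the immediate early genes 9 of 15 were higher with that cell (median 0.07) and 13 of 14 without it (median 0.60). The part of the heat shock, immediate early and epithelial genes in these ratios was not tested.

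Antigen presentation, signalling and stress genes were described by list over all members. Of 11 MHC class I genes 10 were higher in the butyrate members and 1 was at least 2-fold higher, beside 4.32% of all genes, with a median log2 ratio of 0.56. The ratio of H2-D1, a classical heavy chain, was 1.47 (1.35 to 1.61), and that of B2m, the light chain, was 1.59 (1.43 to 1.77). Without the members rich in H2-Aa or Dcn the median was 0.33 and these ratios were 1.22 and 1.39. The list was higher by 0.54 in the cells with Il23r or Il22 as well, with 7 of 7 genes higher. Of 7 MHC class II genes 1 was higher, with a median of -0.61. Cd74 had a ratio of 0.656 over all members and 1.65 without the members rich in H2-Aa or Dcn.

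Of 16 NF-κB and STAT3 response genes 11 were higher and 5 lower, with a median log2 ratio of 0.14. Nfkbia and Tnfaip3, both feedback inhibitors of NF-κB, had ratios of 1.53 and 1.53, and Socs3 had 0.462, with 30 UMIs in the butyrate and 55 in the RA members. The Socs3 ratio was 0.907 when the barcodes with the highest doublet scores were removed. Of 17 immediate early genes, which dissociation of tissue can induce, 7 were higher and 10 lower, with a median of -0.05, and 3 were at least 2-fold lower, beside 6.63% of all genes. Jun had a ratio of 0.341 and Egr1 0.262, and the Jun ratio was 0.818 without the high doublet scores. Of 9 survival and exhaustion genes 1 was higher and 8 were lower, with a median of -0.57, and Bcl2l1, an anti-apoptotic gene, had a ratio of 0.454.

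The other lists with at least 8 genes had medians between -0.08 and 0.27. Of 13 ILC3 markers outside the rule 8 were higher and 5 lower (median log2 ratio 0.06), of 19 lineage transcription factors 9 and 10 (-0.03), and of 8 lymphoid tissue inducer-like genes 4 and 4 (-0.08). Of 11 natural cytotoxicity receptor and group 1 genes 8 were higher and 3 lower (0.27), of 11 heat shock genes 7 and 4 (0.09), and of 13 glycolysis and respiration genes 7 and 6 (0.11). Of the 3 type I interferon genes with enough UMIs 2 were higher, of 4 cell cycle genes 3, and of 3 neuropeptide and neurotrophic receptor genes 1. Mki67, a marker of dividing cells, had 1 UMI in the butyrate and 4 UMIs in the RA members.

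Of the genes through which cells sense butyrate, the receptor genes Ffar2, Ffar3 and Hcar2 were scarcely found in the members. Ffar3 and Hcar2, receptors for short-chain fatty acids, had no UMI in either library. Ffar2 had 3 UMIs in 1 butyrate cell, which was rich in H2-Aa, and none in the RA members. A count of 0 allows up to 9.823 CPM in the butyrate and 11.6 CPM in the RA members. Hdac1, a histone deacetylase, had 30 UMIs in the butyrate and 20 in the RA members, and the proton-sensing receptor gene Gpr65 34 and 22. Of the 5 genes of this list with at least 20 UMIs 3 were higher and 2 lower, with a median log2 ratio of 0.33.

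**Figure D5:**
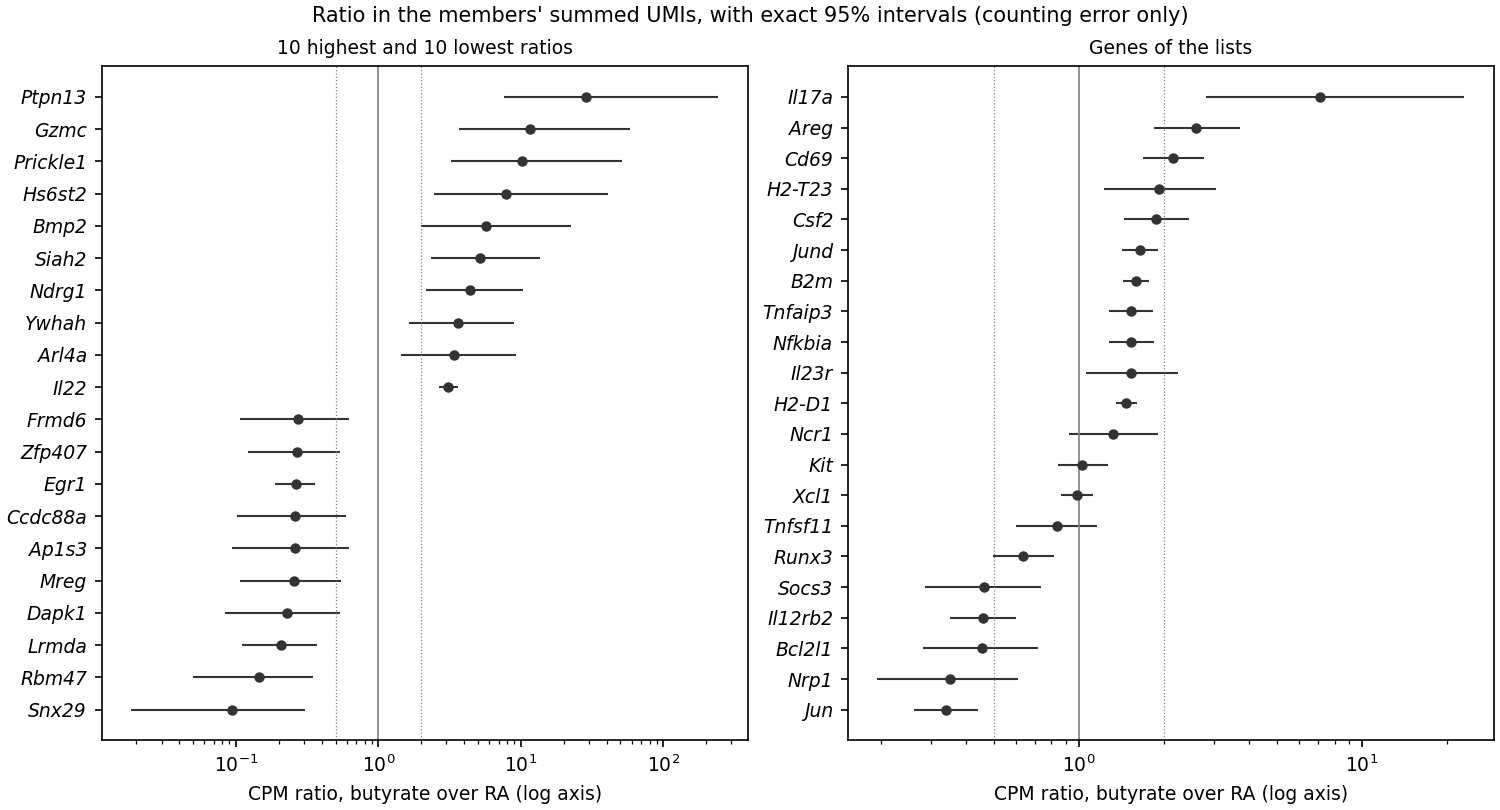
Ratio of CPM in the butyrate members over the RA members with 95% counting intervals on a log axis, for the 10 highest and 10 lowest genes by the naming rule (left) and for 21 genes of the lists (right); vertical lines mark 0.5, 1 and 2. Ptpn13 stands highest at 28.8 and Snx29 lowest at 0.0941.

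Across all genes, the highest ratios in the butyrate members belonged in part to 1 subset. Ptpn13, a protein tyrosine phosphatase gene, had 68 UMIs in 12 butyrate cells and 2 UMIs in 2 RA cells, a ratio of 28.8 (7.67 to 243.0), and 65 of the 68 lay in 9 of the remaining Kit-only cells with Gata3. Prickle1, a planar polarity gene, had 36 UMIs in the butyrate and 3 in the RA members, and Siah2, a ubiquitin ligase gene, 43 and 7, of which 31 and 33 butyrate UMIs lay in the same subset. That subset made up 22% of the butyrate and 8.82% of the RA members, and how far its size sets these ratios was not tested. Gzmc, a granzyme gene, had 41 UMIs in 8 butyrate cells and 3 UMIs in 3 RA cells, a ratio of 11.6 (3.69 to 58.4), and 32 of the 41 lay in cells with Il23r or Il22. Ndrg1, a stress-responsive gene, had 47 UMIs in the butyrate and 9 in the RA members, a ratio of 4.42 (2.14 to 10.3), 33 of the 47 in cells with Il23r or Il22. Hs6st2, Bmp2, Ywhah and Arl4a had ratios of 7.9, 5.72, 3.6 and 3.39. A single cell held 44.1% of the butyrate UMIs of Ptpn13, 46.3% of Gzmc, 44.4% of Bmp2 and 44.7% of Ndrg1. For the other genes named here the top cell held 10.7% to 36.1%.

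The lowest ratios came next. Snx29 had 3 UMIs in 3 butyrate cells and 27 UMIs in 14 RA cells, a ratio of 0.0941 (0.0183 to 0.306). Lrmda had 15 UMIs in 8 butyrate cells and 61 UMIs in 12 RA cells, a ratio of 0.208 (0.11 to 0.371), 12 and 50 of them in Kit-only cells with Ncr1 or Xcl1. Rbm47 had 6 UMIs in the butyrate and 35 in the RA members, at 0.256 and 1.42 times its level in the other kept cells. Egr1 likewise stood at 0.259 and 0.533 times that level. Dapk1, Mreg, Ap1s3, Ccdc88a, Zfp407 and Frmd6 had ratios between 0.228 and 0.271, on 23 to 35 UMIs each in the RA members. A single cell held 50% of the RA UMIs of Mreg and of Ccdc88a, 40% of Rbm47 and of Frmd6, and 39.9% of Egr1. For the other genes named here the top cell held 13% to 26.9%.

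Among genes outside the rule, some stood far above the other kept cells in both libraries. Since the members were chosen from the same cells, this is a description. The other kept cells are of many types, so these folds do not set the members apart from T cells or group 1 cells. Of Xcl1, for example, T cells held 39.7% of the butyrate and 43.5% of the RA UMIs, and the members 13% and 16.6%. Dscam, a cell adhesion gene better known from neurons, stood 124-fold above the other kept cells in the butyrate library and 124-fold in the RA library, with 95 UMIs in 16 butyrate cells and 89 UMIs in 18 RA cells. It was found in 8 of the 12 butyrate and 7 of the 9 RA cells with Il23r or Il22. Csf2 stood 92.8-fold and 86.1-fold above, Ncr1 66.6-fold and 61.1-fold, Tnfsf11 41.9-fold and 58.9-fold, and Xcl1 28.9-fold and 36.7-fold. Il2ra, the high-affinity IL-2 receptor chain, stood 26.5-fold above in the butyrate and 29.6-fold in the RA library, Il18rap, a chain of the IL-18 receptor, 20.7-fold and 32.4-fold, and Gata3 22.5-fold and 21.7-fold. Of the members' Gata3 UMIs, 84 of 126 in the butyrate and 57 of 81 in the RA library lay in the 11 and 3 remaining Kit-only cells. Lsamp, another adhesion gene, stood 17.6-fold and 26.3-fold above, with 178 UMIs in 12 butyrate cells and 279 UMIs in 16 RA cells. Serpinb9, Klrk1, Atp10a, Sytl3, Tnfrsf9 and Il2rb stood between 15.5-fold and 28.2-fold above.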

How the data were processed

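Whole intestine of 2 mice was profiled with Chromium 3' v3.1 chemistry, per the labels' protocols. The authors deposited raw UMI counts per gene and barcode with no normalization. Per the submitters' processing notes, Cell Ranger 6.0.1, Seurat 4.0.3 and 4.0.4 and mm10 were used, whereas the matrix header names Cell Ranger 7.1.0. Whether intronic reads were counted is not given in the sources used here, and counting them could raise the levels of long genes. Of 31253 gene identifiers, 31184 matched GENCODE M21 on GRCm38.

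The depth of kept cells had a median of 5141 UMIs in the butyrate and 4712 in the RA library, and that of the members summed to 305418 and 258651 UMIs. UMIs were summed over cells per library and given as CPM with exact Poisson 95% intervals. Shares carry exact Clopper-Pearson intervals, ratios of CPM exact conditional binomial intervals, and a count of 0 a limit of 3 counts of the total. Genes with at least 20 UMIs over both libraries were described. List medians use log2 ratios with 0.5 UMIs added to each sum. No test was made, since each group is 1 library. Sums and intervals were tested on simulated Poisson and binomial counts, the model that the intervals assume. That simulation held no gathering of UMIs in single cells and no difference between mice, so it cannot tell how the intervals do in these data.

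The members, the 34 gene lists (359 of 363 genes in the files) and the rules were chosen with earlier results of these data known. Beyond the lists, genes named were the 10 highest and 10 lowest ratios with at least 30 UMIs, an interval excluding 1 and at most 50% of UMIs in 1 cell, and the 15 genes farthest above the other kept cells. Ribosomal, mitochondrial, receptor segment and unnamed genes were left out of these. 1 gene is not reported here. Genes outside this rule, and the subsets, were chosen after their values were seen. Scrublet's own threshold called 2 butyrate and 0 RA doublets, so it had not worked, and doublets stayed in except in an alternative that removed the 599 and 441 highest scores, among them 3 and 2 members. The work used Python 3.11.15, numpy 2.4.6, scipy 1.17.1, pandas 2.3.3 and scanpy 1.11.5.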

Additional observations from a re-analysis of the deposited data

How the results depend on the processing

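Members were counted again with at most 10% mitochondrial UMIs, a Cd3 sum of 0, a marker sum of at least 3, the highest doublet scores removed and, chosen after seeing the data, 1 UMI of Epcam allowed or members rich in H2-Aa or Dcn (Dcn alone within subsets) left out. Their numbers lay between 39 and 57 in the butyrate library and between 29 and 44 in the RA library. Of 248 alternative values of gene ratios, 197 lay within the main ratio's counting interval, 40 lay outside it on either side, and 11 crossed 1 where that interval excluded 1. Of the other values, 7 crossed 1 where the interval included 1, among them the thinned values of 0.151 for Gata3 and 2.41 for Xcl1. The cause was not tested. With all cells thinned to 1000 UMIs and members picked again, 21 butyrate and 19 RA members were left, of which 6 and 7 had more than 1 Cd3 UMI before thinning, so this setting picks other cells. There the shares were 71.4% and 78.9% with Il23r or Il22, 9.52% and 10.5% with Ncr1, and 0% and 5.26% with Ccr6. Genes at least 2-fold higher and lower were 187 and 287 of 4331 (4.32% and 6.63%) as reported, 17 and 12 of 303 (5.61% and 3.96%) when thinned, and 2294 and 3035 of 13347 (17.2% and 22.7%) with no UMI minimum. Thinned list medians were 0.28 for cytokine receptors, 0.52 for heat shock and 0.75 for immediate early genes. Of the ratios whose interval excluded 1, the thinned values on the other side were 0.724 for Cd69, 4.98 for Cd74, 3.62 for Il12rb2, 0.226 for Il17a, 0.831 for Il7r, 0.557 for Nfkbia and 0.452 for Ptpn13. The Cd74 ratio was 1.01 with 1 UMI of Epcam allowed and 1.65 without members rich in H2-Aa or Dcn. With a mean over cells in place of the sum, Il23r had a ratio of 0.943 and Il7r of 0.978, and the list medians were -0.31 for cytokine receptors, 0.07 for homing receptors, 0.11 for immediate early genes and -0.34 for survival genes. The MHC class II median was -1.27 with a marker sum of at least 3 and 0.04 with 1 UMI of Epcam allowed. The homing median was 0.23 with that UMI of Epcam and 0.08 without members rich in H2-Aa or Dcn, and the immediate early median was 0.17 with high doublet scores removed. No paired analysis was possible because each group is 1 mouse and the labels carry no replicate numbers. The members' summed depth and their 84 cells limit every share and ratio above.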
